A study of Homo sapiens with 2 samples.

Results

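Aminoacyl-tRNA synthetases are the enzymes that join each amino acid to its tRNA. Their members were taken as the probe sets of the array that the platform annotation maps to exactly 1 gene symbol, where that symbol is 1 of 35 listed synthetases, 19 cytosolic and 16 mitochondrial. By this rule 32 genes with 67 probe sets were measured, of 19775 genes in all: 17 cytosolic enzymes with 34 probe sets and 15 mitochondrial enzymes with 33. MARS1, QARS1 and TARS2 were not analysed here, since all their probe sets carry a microRNA symbol beside the gene's own. The data are total RNA of MM.1S, a human multiple myeloma cell line, on Affymetrix HG-U133 Plus 2.0 arrays: 1 array of MM.1S cells cultured with plasmacytoid dendritic cells (pDCs, the dendritic cells known for making type I interferon) and 1 array of MM.1S cells cultured alone. The series asks how pDCs act on the growth and drug resistance of myeloma cells. With 1 array per group no value has a replicate error and no test was possible, so "higher" and "lower" describe these arrays.

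The cytosol and the mitochondrion each have their own set of synthetases, all encoded in the nucleus and nearly all by separate genes, apart from GARS1 and KARS1, which serve both compartments. Several cytosolic enzymes are held together in the multisynthetase complex, and others act as free enzymes. In amino acid shortage uncharged tRNA activates the kinase GCN2, and the transcription factor ATF4 then raises many cytosolic synthetase genes together with genes of amino acid synthesis and uptake. Plasma cells and myeloma cells secrete large amounts of immunoglobulin and therefore have a high demand for charged tRNA.

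Each gene is given by its probe set with the highest mean signal over both arrays (its brightest probe set). Signals are MAS5 intensities on a linear scale, and levels were not compared between genes, since probe sets differ in brightness. Signals under the median of their array, 115.9 with pDCs and 124.0 alone, were set to that floor. All 32 brightest probe sets exceeded the floor on each of the 2 arrays. The 3' to 5' signal ratio, a measure of RNA integrity, was 8.09 with pDCs and 19.5 alone for the ACTB control probe sets, and 2.46 with pDCs and 3.07 alone for GAPDH, and its part in the ratios below was not tested. Of 12 measured pDC markers, 7 were above the floor with pDCs and 8 alone, with summed signals of 6474 and 8578. The defining pDC markers CLEC4C (61.4 with pDCs, 6.43 alone) and IL3RA (29.0 with pDCs, 21.1 alone) were below the floor on both arrays, NRP1 was below it with pDCs and had 146 alone, and LILRA4 had 306 with pDCs and 256 alone. Of the 9 pDC markers with a ratio, 7 were lower with pDCs, and 3 of them by at least 2-fold: the protease gene GZMB (174 with pDCs, 604 alone, 3.47-fold lower), PACSIN1 (400.2 with pDCs, 928 alone, 2.32-fold lower) and TLR9 (at least 2.24-fold lower). Of further markers, named after their values were seen, TLR7 was below the floor alone and at least 1.71-fold higher. TCF4 had the largest signals in both sums (3569 with pDCs, 4400 alone). Its brightest probe set counted as lower (log2 ratio -0.30), but most of its others were higher, up to 1.07. All 10 plasma cell markers were above the floor on both arrays. SDC1 had signals of 10177 with pDCs and 10503 alone, and IRF4 had 11634 with pDCs and 11111 alone, while the surface receptor GPRC5D had 4255 with pDCs and 1016 alone (4.19-fold higher). Log2 ratios of the 10 plasma cell markers ran from -0.67 to 2.07, with 5 positive and 5 negative, and the part of these markers in the synthetase ratios was not tested. The sources used here do not say whether pDCs were removed before the RNA was extracted. In bulk RNA, fewer cells of a type and less RNA per cell cannot be told apart.

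Promoter stretches are shown first, for the genes whose promoters carry letters of ATF4, interferon or ETS response elements, since ATF4 and interferon are known to act on some synthetase genes. Of the 32 measured synthetases, 27 had a promoter in the RefSeq table (GRCh38.p14), and the 250 bases before each start listed there, some genes having several, were searched on both strands. The ATF4 letters TGATGNAA, where N is any base, were in promoters of 4 of the 27 synthetases (14.8%), against 3.89% of the 27305 symbols in the table, which also holds noncoding genes. The letters of GARS1 lie before a downstream start and after its first one, and its stretch is not shown. In the other 3 stretches the capitals mark these letters or their reverse complement TTNCATCA, read 5′ to 3′ on the gene's strand. They lie at chr16:70289666-70289713 on the minus strand for AARS1, at chr9:92293698-92293730 on the minus strand for IARS1 and at chr12:32756067-32756114 on the minus strand for YARS2.
AARS1: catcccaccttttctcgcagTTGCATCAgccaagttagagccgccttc
IARS1: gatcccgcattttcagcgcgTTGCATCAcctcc
YARS2: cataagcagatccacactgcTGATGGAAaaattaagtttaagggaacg

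The letters of the interferon-stimulated response element (GAAA, any 2 bases, GAAA, on either strand) were in promoters of 2 of the 27 synthetases (7.41%), against 3.71% of all symbols. One of them is WARS1, the tryptophan enzyme known as an interferon-induced gene, whose stretch lies before a downstream start at chr14:100375373-100375422 on the minus strand. The other is EARS2, the mitochondrial glutamate enzyme.
WARS1: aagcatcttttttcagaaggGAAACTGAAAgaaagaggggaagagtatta

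The histidine enzymes HARS1 and HARS2 are transcribed away from each other from 1 shared promoter, and the 84 bases between their start sites are shown because both genes could be compared on the arrays. The stretch lies at chr5:140691371-140691454, is read on the plus strand, towards HARS2, and carries the ETS letters CCGGAAGT and their reverse complement ACTTCCGG, marked in capitals, once near each start. These letters were in promoters of 8 of the 27 synthetases (29.6%), against 4.13% of all symbols. HARS1 and HARS2 are both counted among the 8, through the same letters of this shared stretch. A match of letters is a description, not a bound site.
HARS1 and HARS2: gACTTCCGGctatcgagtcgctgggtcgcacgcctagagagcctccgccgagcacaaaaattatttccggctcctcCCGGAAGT

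No synthetase differed by 2-fold between MM.1S cells with pDCs and MM.1S cells alone. Over the 14408 genes above the floor on at least 1 array, 3.16% were at least 2-fold higher with pDCs and 4.51% at least 2-fold lower, or 7.68% in either direction. Of these genes 11522 were above the floor on both arrays, as all 32 synthetases were. The values over all genes thus cover dimmer genes as well, and the part of this in the comparison was not tested. At 1.5-fold, 2 of the 32 synthetases were higher, against 11.5% of all genes, and 5 of the 32 were lower, against 15.3% of all genes. The higher ones were the glycine enzyme GARS1 and the mitochondrial serine enzyme SARS2. The lower ones were the tryptophan enzyme WARS1 and the mitochondrial enzymes for proline (PARS2), valine (VARS2), tyrosine (YARS2) and alanine (AARS2). Of these 7, AARS2 was within 1.5-fold after median centring (log2 ratio -0.57), and AARS2 and WARS1 with the mean over probe sets (-0.34 and -0.56). With the floor at the 70th percentile, PARS2 was below the floor with pDCs. Its value there, -0.54, is a bound and does not place it within 1.5-fold. The threonine enzyme TARS1 passed 1.5-fold higher under the 3 other scalings (0.60 to 0.62), and the tyrosine enzyme YARS1 passed 1.5-fold lower without x_at and s_at probe sets (-0.83). The log2 ratios of the 32 genes, with pDCs over alone, lay between -0.87 and 0.69, with a median of -0.03 beside -0.04 over all genes. The median size of the ratio, without sign, was 0.30 (log2) for the synthetases and 0.35 for all genes.

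**Figure D1:**
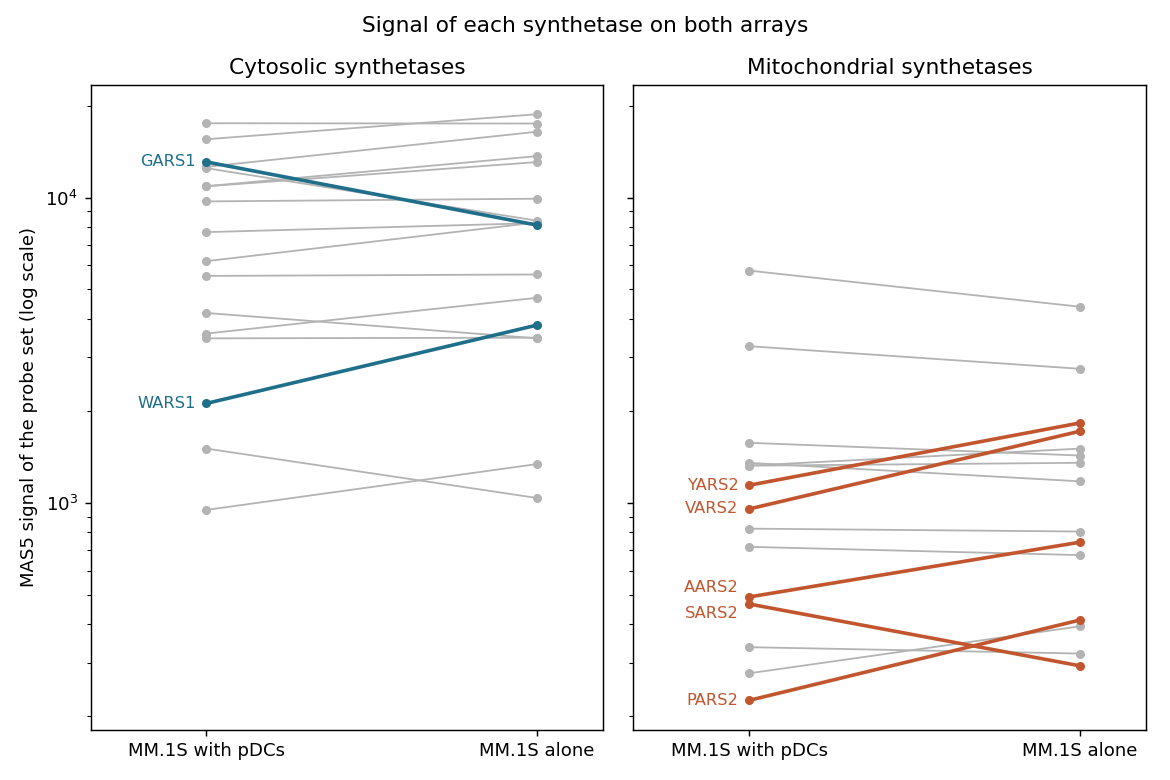
MAS5 signal (log axis) of the brightest probe set of each synthetase on the array of MM.1S cells with pDCs (left) and of MM.1S cells alone (right), for 17 cytosolic and 15 mitochondrial enzymes. Each line is 1 gene, and the 7 genes that differ by at least 1.5-fold are coloured and named: GARS1 and SARS2 slope down towards MM.1S alone, and WARS1, YARS2, VARS2, AARS2 and PARS2 slope up.

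GARS1, which charges glycine tRNA in the cytosol and in mitochondria, had a signal of 13077 with pDCs and 8121 alone. It was 1.61-fold higher with pDCs, on its only probe set. TARS1, the threonine enzyme, had 12478 with pDCs and 8397 alone (1.49-fold higher), and its other probe set was below the floor on both arrays. RARS1, the arginine enzyme of the multisynthetase complex, had 1506 with pDCs and 1038 alone, which is 1.45-fold higher on its only probe set. All 3 genes stayed higher under each alternative of the processing that gave them a value. Each rests on a single probe set above the floor, so only the other scalings changed its ratio, and the choice of probe sets could not. The leucine enzyme LARS1, also known as a leucine sensor for mTORC1, had 4187 with pDCs and 3459 alone, a log2 ratio of 0.28. Its next probe set gave 0.30 and a further one -0.23. The only other cytosolic gene with a positive ratio was NARS1, the asparagine enzyme, with 17503 with pDCs and 17466 alone, which is a log2 ratio of 0.00.

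WARS1 had the lowest ratio of the cytosolic enzymes. Its brightest probe set had a signal of 2117 with pDCs and 3821 alone, 1.81-fold lower with pDCs, and the other had 1058 with pDCs and 1280 alone, a log2 ratio of -0.28. Both probe sets were thus lower with pDCs, by different amounts. The tyrosine enzyme YARS1, whose secreted fragments are known to act as cytokines, had 10890.2 with pDCs and 13664 alone (log2 ratio -0.33), and its dimmer probe set had 221 with pDCs and 392 alone (-0.83).

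FARSA and FARSB encode the alpha and beta subunits of the cytosolic phenylalanine enzyme. FARSA had 948 with pDCs and 1340.3 alone, a log2 ratio of -0.50, but its other probe set went the opposite way, with 1096 with pDCs and 868 alone (0.34). FARSB had 5537 with pDCs and 5596 alone, a log2 ratio of -0.02, and its sign turned after median centring and after quantile normalization. The serine enzyme SARS1 had 6187 with pDCs and 8288 alone (-0.42), and its dimmer probe set had 528 with pDCs and 460.3 alone (0.20). The cysteine enzyme CARS1 had 12599 with pDCs and 16417 alone (-0.38), and 2499 with pDCs and 2269 alone (0.14) on its next probe set. For FARSA, SARS1 and CARS1 the direction therefore depends on the probe set.

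The isoleucine enzyme IARS1 had 15517 with pDCs and 18734 alone (log2 ratio -0.27), and AARS1, the alanine enzyme, had 10881 with pDCs and 13062 alone (-0.26), each on its only probe set. HARS1 had 3584.5 with pDCs and 4694 alone (-0.39). The lysine enzyme KARS1 had -0.10, and 0.15 on its dimmer probe set. The ratios of EPRS1, a fusion that charges both glutamate and proline, and of the valine enzyme VARS1 were -0.03 and -0.01, and their signs turned under other scalings. For EPRS1, the brightest probe sets gave -0.03 and -0.05, and a dimmer one, at 380.2 with pDCs and 242 alone, gave 0.65.

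As a group, 12 of the 17 cytosolic enzymes had a negative ratio and 5 a positive one, and the median log2 ratio was -0.10, beside -0.04 over all genes, of which 52.8% were negative. Median centring or quantile normalization left 10 of the 17 negative, and loess 11. The median moved to -0.38 over the 11 genes left without x_at and s_at probe sets, which can bind several transcripts, and to -0.015 over the 11 genes left without those whose probe sets differ in sign. The 5 measured enzymes of the multisynthetase complex, EPRS1, IARS1, LARS1, RARS1 and KARS1, had a median of -0.03, with 3 negative and 2 positive. The 12 cytosolic enzymes outside this complex had a median of -0.30, with 9 negative and 3 positive. Of 12 measured synthetases known as ATF4 targets, 8 were negative and 4 positive, with a median of -0.15, and the other 5 cytosolic enzymes had a median of -0.10. None of these lists had a member past 2-fold, and the differences between their medians were not tested.

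The 4 genes with ATF4 letters did not share a direction: AARS1, IARS1 and YARS2 were lower with pDCs and GARS1 was higher. Of the 2 genes with the interferon letters, WARS1 was lower, and EARS2 had a log2 ratio of 0.03 with probe sets on both sides of 0.

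**Figure D2:**
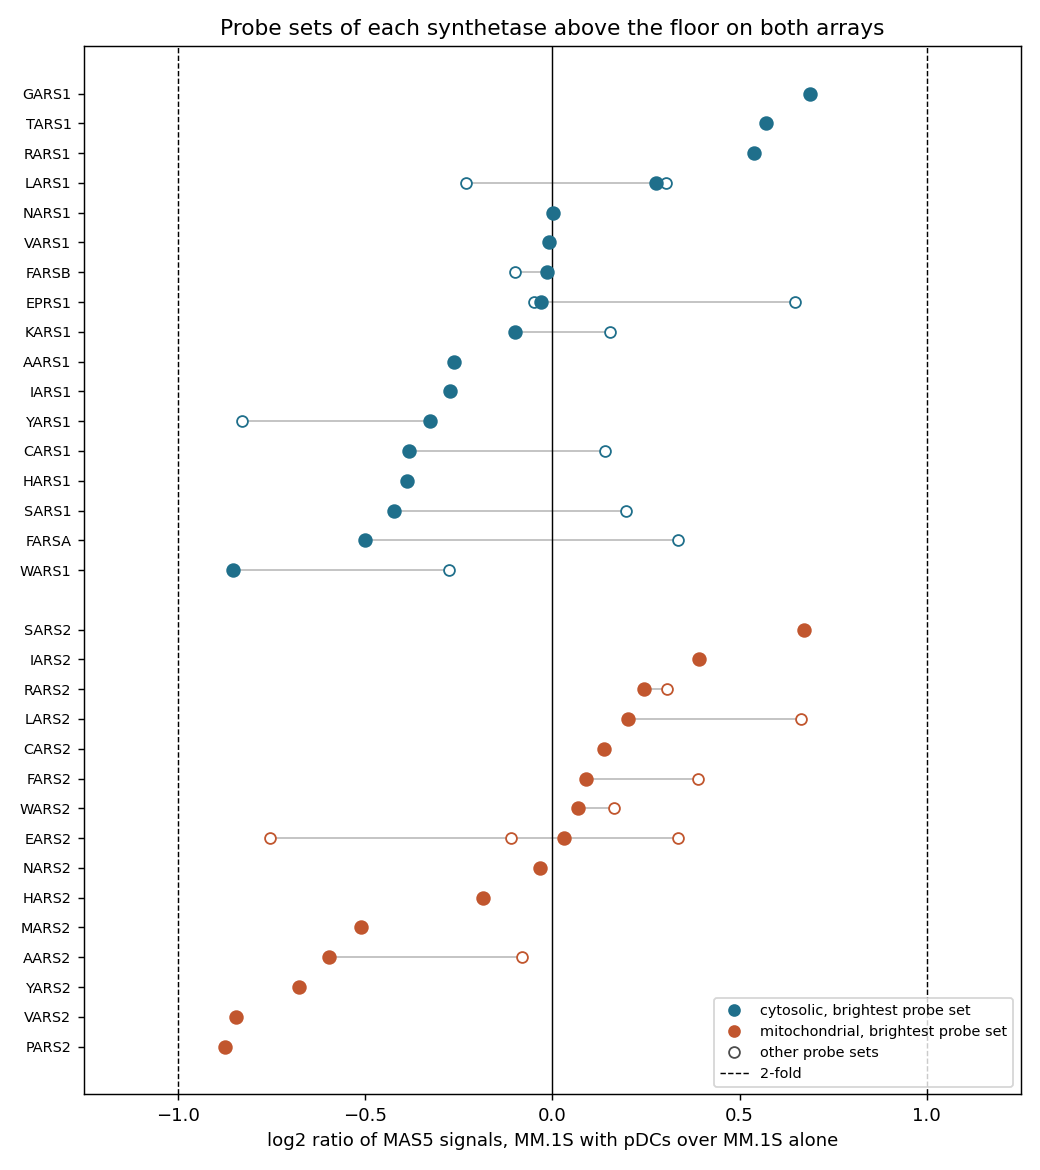
Log2 ratio of MAS5 signals, MM.1S with pDCs over MM.1S alone, for every synthetase probe set that exceeded the floor on each array. Filled points are the brightest probe set of each gene and open points the others, joined by a line, with dashed lines at 2-fold. All points lie inside 2-fold, and for 7 genes the line crosses 0.

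Of the 32 genes, 15 had several probe sets that exceeded the floor on each array. In 7 of these 15 (46.7%) the probe sets differed in sign: CARS1, EPRS1, FARSA, KARS1, LARS1, SARS1 and EARS2. Over all 4844 genes with such probe sets, 51.0% did. The range between the highest and lowest ratio of a gene had a median of 0.51 (log2) in the synthetases and 0.56 over all genes. The ratios of 23 of the 32 synthetases were smaller in size than the median gap of 0.51 between probe sets of 1 gene. The other 17 genes, among them GARS1, TARS1, RARS1, PARS2, VARS2, YARS2 and SARS2, rest on 1 such probe set.

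Mitochondrial enzymes spread over much the same range, with 7 of 15 negative, 8 positive and a median log2 ratio of 0.03. The lowest was PARS2, which charges proline tRNA, with a signal of 226 with pDCs and 413 alone (1.83-fold lower). VARS2, the valine enzyme, had 955 with pDCs and 1717 alone (1.80-fold lower). YARS2, the tyrosine enzyme, whose mutations are known to cause myopathy with sideroblastic anaemia, had 1143 with pDCs and 1827 alone (1.60-fold lower). Each of the 3 has a single probe set, and each stayed lower under all alternatives run. The choice of probe sets could not change these ratios, so only the scalings and, for PARS2, the highest floor bear on them. AARS2, the alanine enzyme, had 492 with pDCs and 744 alone (1.51-fold lower), and its other probe set had 178 with pDCs and 188 alone (-0.08). MARS2, the methionine enzyme, had 277 with pDCs and 394 alone, a log2 ratio of -0.51, and HARS2 had 1325 with pDCs and 1506 alone (-0.18).

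On the other side, SARS2 had a signal of 467 with pDCs and 293 alone (1.59-fold higher). The isoleucine enzyme IARS2 had 5762 with pDCs and 4388 alone, a log2 ratio of 0.39. Both have 1 probe set. LARS2, the leucine enzyme, was higher with pDCs on both of its probe sets, with 1352 and 919 with pDCs, against 1177 and 580.3 alone, which are log2 ratios of 0.20 and 0.66. RARS2, the arginine enzyme, was higher on both probe sets that exceeded the floor on each array (0.25 and 0.31), as were the phenylalanine enzyme FARS2 (0.09 and 0.39) and the tryptophan enzyme WARS2 (0.07 and 0.17). In these 4 genes all probe sets that exceeded the floor on each array share a direction, although no ratio reached 2-fold.

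EARS2 had 4 probe sets that exceeded the floor on each array, with log2 ratios of 0.03, -0.11, 0.33 and -0.75, so it gives no direction. CARS2, the mitochondrial cysteine enzyme, had 1573 with pDCs and 1429 alone (0.14). Another CARS2 probe set, at 64.5 with pDCs and 252 alone, was below the floor with pDCs and at least 2.17-fold lower. It was the only synthetase probe set with a ratio past 2-fold. A further CARS2 probe set went the other way, at 117.5 with pDCs and 5.60 alone. It was above the floor only with pDCs, and under the floor value of the other array, so it gave no ratio. The same held for a RARS2 probe set (118.3 with pDCs, 15.7 alone) and for CARS1 probe sets (118.6 and 116.3 with pDCs, 77.6 and 38.3 alone). The asparagine enzyme NARS2 had 1324 with pDCs and 1353 alone (-0.03).

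The median log2 ratio of the cytosolic enzymes minus that of the mitochondrial enzymes was -0.13. With each gene given as the mean ratio of its probe sets, this difference was 0.067, so no direction is given to it. Enzymes of the same amino acid could be compared in 15 cytosolic and mitochondrial pairs over 14 amino acids, in which FARS2 stands beside both FARSA and FARSB, and EPRS1 beside both EARS2 and PARS2. Both members were negative in 5 pairs and both positive in 2, and in 7 pairs the cytosolic enzyme was negative and the mitochondrial one positive, FARS2 being in 2 of these 7. In several of these 7 a sign depends on the probe set or the processing. The reverse held in 1 pair, asparagine, at 0.00 for NARS1 and -0.03 for NARS2. The mitochondrial enzyme had the higher ratio in 8 of the 15 pairs. The widest gap was for serine, with -0.42 for SARS1 and 0.67 for SARS2, although SARS1 has a positive second probe set. For tryptophan, WARS1 had -0.85 and WARS2 0.07. For isoleucine, IARS1 had -0.27 and IARS2 0.39, each on 1 probe set. The order was the opposite for valine, where VARS1 had -0.01 and VARS2 -0.85, and for proline, where EPRS1 had -0.03 and PARS2 -0.87. The arginine and leucine enzymes were higher with pDCs in both compartments on their brightest probe sets, at 0.54 for RARS1 and 0.25 for RARS2, and at 0.28 for LARS1 and 0.20 for LARS2. Alanine, tyrosine and histidine enzymes were lower in both. The histidine pair, which shares the promoter shown above, had -0.39 for HARS1 and -0.18 for HARS2.

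**Figure D3:**
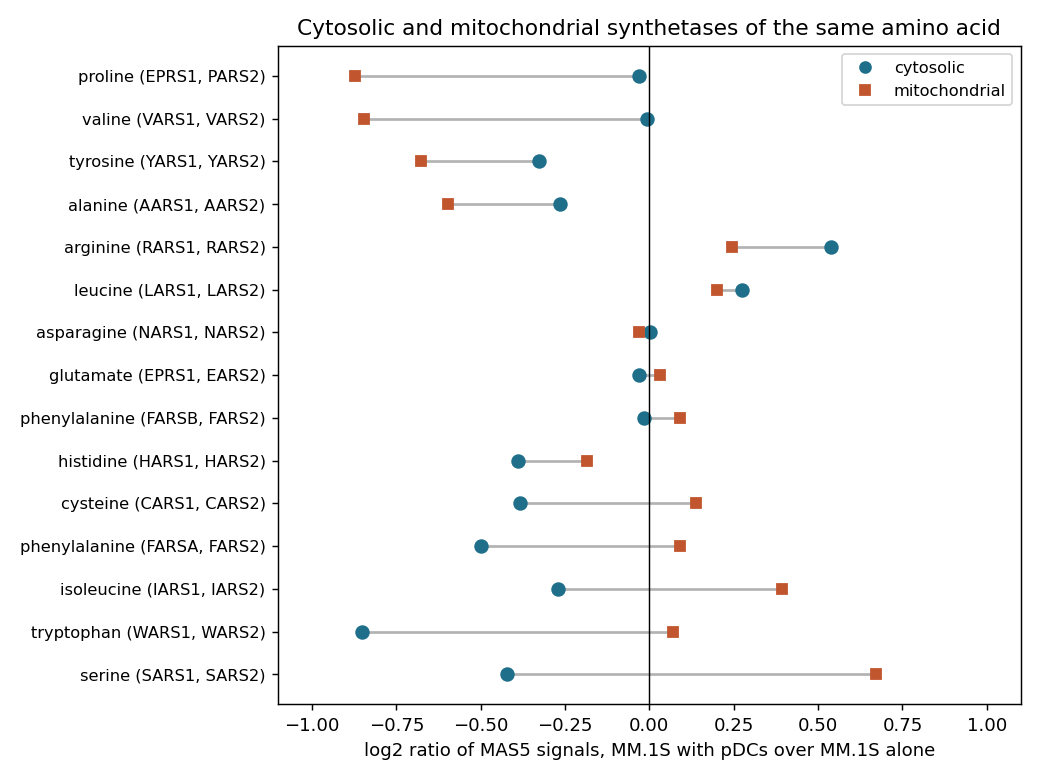
Log2 ratio of MAS5 signals, MM.1S with pDCs over MM.1S alone, of the brightest probe set of the cytosolic (circle) and mitochondrial (square) enzyme of each amino acid, ordered by the difference between them. The widest gap is for serine, with SARS1 at -0.42 and SARS2 at 0.67, and the gaps run in both directions.

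The proteins that work with the synthetases also stayed inside 2-fold on their brightest probe sets, except in the lists of tRNA production and of the ATF4 pathway. AIMP1, a scaffold of the multisynthetase complex, had 4038 with pDCs and 4496 alone (log2 ratio -0.15), with 0.10 and 0.02 on its other probe sets. AIMP2 and EEF1E1 were not analysed here. In mitochondria, glutamine tRNA is first charged with glutamate by EARS2 and then amidated by the complex of QRSL1, GATB and GATC, and MTFMT formylates the initiator methionine tRNA charged by MARS2. These 4 partners had positive ratios with a median of 0.16, though GATC, at 881 with pDCs and 876 alone, turned negative after quantile normalization and after loess. MTFMT had 1061 with pDCs and 990.0 alone (0.10). QRSL1, named after its values were seen, had 0.23 on its brightest probe set, with 811 with pDCs and 693 alone, and was 2.09-fold higher on the next, with 509.6 with pDCs and 244 alone.

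Of 5 genes of tRNA proofreading, selenocysteine charging and related synthetase-like proteins, 3 were negative and 2 positive, with a median of -0.22. DTD1, which removes D-amino acids from tRNA, had a log2 ratio of -0.48 on its brightest probe set, and DTD2 had -0.22. The other DTD1 probe set, below the floor alone, was at least 0.74. Of 4 cytosolic elongation factors, 3 were positive and 1 negative, with a median of 0.04. EEF1A1, which carries charged tRNA to the ribosome, had 66304 with pDCs and 63226 alone (0.07), and EEF2 had 43433 with pDCs and 42935 alone (0.02). Of 8 mitochondrial translation factors, 4 were positive and 4 negative, with a median of -0.13. TUFM, the mitochondrial counterpart of EEF1A1, had -0.33, and 0.35 on its dimmer probe set. The elongation factor GFM1 had 0.08 on its brightest probe set, with 6082 with pDCs and 5751 alone, but a dimmer one had 1306 with pDCs and 235 alone (2.47), and a further one 2399 with pDCs and 1163 alone (1.05).

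Among 27 measured genes of tRNA transcription, processing and export, 15 were negative and 12 positive, with a median of -0.02. Only POLR3G, a subunit of RNA polymerase III, had a value past 2-fold, with 201 with pDCs and 620.0 alone (3.08-fold lower). Its other probe set above the floor had 175 with pDCs and 332 alone, a log2 ratio of -0.93, so both were lower with pDCs. BRF1, named after its values were seen, had 235 with pDCs and was below the floor alone. It was at least 1.89-fold higher, so it cannot be placed inside 2-fold. Another BRF1 probe set, below the floor with pDCs, had a bound of -0.16. XPOT, the tRNA export receptor, named after its values were seen, had 8410.0 with pDCs and 5993 alone (0.49) and -0.03 on its other probe set.

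In the GCN2 and ATF4 pathway outside the synthetases, 25 of 26 genes were above the floor, with 14 positive, 11 negative and a median of 0.04. ATF4 itself had 36054 with pDCs and 35130.2 alone (log2 ratio 0.04), and ASNS, the asparagine synthetase gene that ATF4 controls, had 17810 with pDCs and 22526 alone (-0.34). The genes past 2-fold were CHAC1, at 1169 with pDCs and 3487 alone (2.98-fold lower), and DDIT4, at 4022 with pDCs and 14545 alone (3.62-fold lower). Both CHAC1 and DDIT4 rest on their only probe set. Of further members, named after their values were seen, TRIB3, a pseudokinase that restrains ATF4, had -0.57, and 0.01 on its dimmer probe set. The transcription factor DDIT3 had -0.76, while MTHFD2, a mitochondrial folate enzyme, had 0.45. ATF3 had 0.15 on its brightest probe set, and 1.22 and 0.64 on dimmer ones. On brightest probe sets, the synthetases known as ATF4 targets thus spanned -0.85 to 0.69, and the rest of the pathway -1.85 to 0.45.

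**Figure D4:**
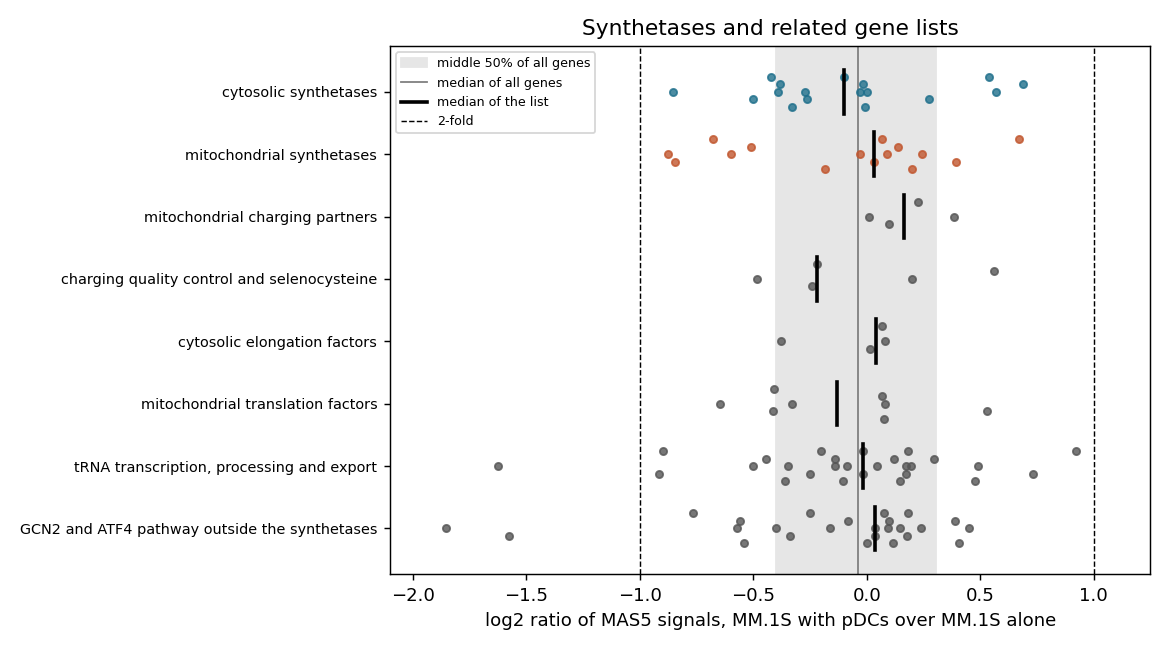
Log2 ratio of MAS5 signals, MM.1S with pDCs over MM.1S alone, of each gene (points, brightest probe set) in the cytosolic and mitochondrial synthetases and in 6 related lists; black bars are list medians, the grey band is the middle 50% of all genes and dashed lines mark 2-fold. Points past 2-fold are POLR3G, CHAC1 and DDIT4, all lower with pDCs, and the point of BRF1 at 0.92 is a lower bound.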

How the data were processed

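RNA of MM.1S cells cultured with pDCs and of MM.1S cells cultured alone was measured on 1 HG-U133 Plus 2.0 array per group. The sample titles gave the groups. The authors deposited MAS5 values (per the submitters' processing notes, which name no version), a linear intensity signal for each probe set. Background settings and detection calls were not among the sources used here. Both arrays had a mean signal of 500.1 once the upper and lower 2% were trimmed, and such scaling hides a shift shared by most transcripts. The precision is limited by the number of arrays.

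Of 54675 probe sets, 41091 had 1 gene symbol in the platform annotation, 1801 had several, 11721 had none and 62 were controls. Only those with 1 symbol were used, which gave 19775 genes; 41037 of these probe sets matched a RefSeq gene (GRCh38.p14) by gene identifier and 0 symbols needed an update. For each gene the brightest probe set, by mean log2 signal over both arrays, was used. Signals below the median of their array (115.9 with pDCs and 124.0 alone) were set to it. This gives a bound where 1 array was below this floor and no ratio where both were. A bound that fell on the wrong side of 1-fold, because the 2 floors differ, was also given no ratio. Ratios are log2 of MM.1S with pDCs over MM.1S alone, calculated here. A size of 2-fold was the threshold, with no test.

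The members, the gene lists, the motifs and the alternatives were chosen with earlier results of these arrays known. All 35 listed synthetases were to be named. From each related list, up to 3 genes past 2-fold in each direction were named or, with none, the 2 with the highest mean signal, and ATF4, ASNS, AIMP1, AIMP2, EEF1E1 and 6 cell type markers were always named. Other genes were named with their values known, as the text says. The alternatives tried were median centring, quantile normalization, loess (span 0.3), floors at the 30th or 70th percentile or none, the mean over probe sets, dropping x_at and s_at probe sets, whose probes may match more than 1 transcript, dropping genes whose probe sets differ in sign, and thresholds of 1.5-fold and 3-fold. The calculation was tested on simulated data. Promoter sequences are from RefSeq (GRCh38.p14). The tools were Python 3.11.15, pandas 2.3.3, numpy 2.4.6, statsmodels 0.14.6, scipy 1.17.1 and, for figures, matplotlib 3.10.9.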

Additional observations from a re-analysis of the deposited data

How the results depend on the processing

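The signs of 26 of the 32 synthetases were the same in each of the 9 alternatives that gave them a value. Those of EPRS1, FARSB, VARS1, KARS1, CARS2 and EARS2 turned in at least 1. All brightest probe sets exceeded the main floor on each array, so a lower floor or none could not change their ratios. For most of the 17 genes with 1 probe set above the floor on both arrays, the choice of probe sets could not either. The count of kept signs therefore says little about these directions. No alternative scaling, floor or choice of probe sets put a synthetase past 2-fold, while a threshold of 1.5-fold gave 2 higher and 5 lower genes and one of 3-fold gave 0. With the mean over probe sets, the mitochondrial median became -0.12 and the cytosolic minus mitochondrial difference 0.067. Without x_at and s_at probe sets, 11 cytosolic genes remained, with a median of -0.38, the mitochondrial median was -0.032 and the difference -0.35. Without genes whose probe sets differ in sign, 7 of 11 cytosolic genes were negative, the cytosolic median was -0.015 and the difference -0.034. These 2 settings hold fewer genes by construction, although 15 mitochondrial genes remained without x_at and s_at probe sets. With the mean over probe sets, CARS2 went from 0.14 to -0.49 and EARS2 from 0.03 to -0.12, the value of the new mitochondrial median. The CARS2 mean includes a probe set below the floor with pDCs, at a bound of -1.12. It leaves out one that was above the floor only with pDCs and gave no ratio. Nothing further was tested. Signals of PARS2, MARS2 and SARS2 lay close to the floor at the 70th percentile. PARS2 and MARS2 were below that floor with pDCs, so their log2 values there, -0.54 and -0.48, are bounds. No paired analysis was possible because each group has 1 array.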
